A study of Mus musculus with 20 samples.

Results

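The genes described here are 33 genes of cholesterol and fatty acid synthesis, taken by gene symbol from a table of 32285 genes measured by bulk RNA sequencing in tumours of B16F10, a mouse melanoma line. All 33 were found in the table, and all 33 passed the filter on low counts, which kept 15875 genes. The 20 tumours grew from B16F10 cells, labelled wild type, in immunocompetent C57BL/6 mice, were treated from a volume near 100 mm3 and were taken on day 16. The groups were propafenone with anti-PD-1 antibody (called the combination), propafenone alone, anti-PD-1 alone and control IgG, with 5 tumours each. Propafenone is an antiarrhythmic drug that blocks sodium channels, and anti-PD-1 blocks an inhibitory receptor of T cells. The labels of the propafenone tumours name propafenone only, while the design text sets propafenone on a background of IgG or anti-PD-1, so whether they also had IgG is taken from that text. The labels do not give the age or sex of the mice or say whether each tumour came from its own mouse, so p-values measure the spread between these tumours. The tumours descend from a single cell line.

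Cholesterol is built from acetyl-CoA by way of mevalonate, farnesyl diphosphate, squalene and lanosterol. Fatty acids are built from the same acetyl-CoA by way of malonyl-CoA, then elongated, desaturated and stored in triglycerides. Both routes are driven by the transcription factors SREBP-1 (Srebf1) and SREBP-2 (Srebf2), which Scap carries out of the endoplasmic reticulum when sterols are low and which Insig1 holds back when sterols are high. Tumour cells draw on both routes for membranes, and the share of polyunsaturated against monounsaturated fatty acids in membranes is known to bear on ferroptosis, the iron-dependent cell death that the title of the series names.

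Total counts per tumour, in units of 1e6, ran from 55.99 to 64.5. Markers of the melanocyte lineage summed to 13678 to 22547 CPM (counts scaled to a common library size with TMM factors) over the 20 tumours, which is the labelled cell type. Hepatocyte markers, a check for another lipid-making tissue, summed to at most 0.293 CPM, with Alb and Serpina1a at 0 in all 20 tumours. Sebocyte and keratinocyte markers summed to 2.31 to 33.5 CPM in combination tumours, 2.07 to 22.6 CPM in propafenone tumours, 2.59 to 90.1 CPM in anti-PD-1 tumours and 2.98 to 3.92 CPM in IgG tumours. The highest sum was that of anti-PD-1 tumour 3. In combination against IgG tumours 7 of 9 tested markers of this list were above 0 and 0 were called, and their part was not tested. Tumours also carried RNA of neighbouring tissue. Skeletal muscle markers summed to 41.2 to 569.8 CPM in combination tumours, 14.4 to 73.3 CPM in propafenone tumours, 6.76 to 308.8 CPM in anti-PD-1 tumours and 6.76 to 84.4 CPM in IgG tumours. Macrophage markers summed to 203 to 454 CPM in combination tumours, 58.6 to 197 CPM in propafenone tumours, 120 to 231 CPM in anti-PD-1 tumours and 38.3 to 184 CPM in IgG tumours. Fibroblast markers summed to 537 to 1261 CPM in combination tumours, 116 to 264 CPM in propafenone tumours, 271 to 962 CPM in anti-PD-1 tumours and 142 to 523 CPM in IgG tumours. Red blood cell markers summed to 172 to 453 CPM in combination tumours, 770 to 6591 CPM in propafenone tumours, 307 to 5773 CPM in anti-PD-1 tumours and 290.4 to 11686 CPM in IgG tumours. The combination and propafenone ranges of this sum did not overlap. In combination against IgG tumours 6 of 10 macrophage markers, 5 of 8 fibroblast markers and 7 of 12 muscle markers were called higher and 2 of 7 red blood cell markers lower; their part in the results below was not tested, apart from fits with the muscle score as a covariate and fits without the 5 tumours of highest Hbb-bs, a haemoglobin gene. In bulk tissue, fewer cells of a type and less RNA per cell cannot be told apart.

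The 33 genes together held between 0.407% and 0.573% of each tumour's TPM (a level per transcript length, made by the authors, that sums to 1000000 in each tumour). Scd2, a stearoyl-CoA desaturase that makes monounsaturated fatty acids, had the highest level, 1044 ± 144 TPM (mean ± SD over 20 tumours). It was followed by Fdps, which makes farnesyl diphosphate, at 714 ± 87.5 TPM. The Scd2 and Fdps ranges overlapped, while the lowest Fdps value, 521 TPM, lay above the highest value of the next gene, Fads2, at 333.5 TPM. From Fads2 down to Dgat2, each gene's range overlapped that of its neighbour in the order. Dgat2, which makes triglyceride from diacylglycerol, had the lowest level at 7.02 ± 3.35 TPM and also the widest relative range, 5.08-fold from 3.07 to 15.6 TPM. Hsd17b7 spanned 3.21-fold, Elovl6 3.07-fold, Stard4 2.86-fold and Hmgcs1 2.76-fold, while Nsdhl spanned 1.22-fold. The close paralogs Scd1 and Scd2 may share reads, so how their counts divide is uncertain.

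**Figure D1:**
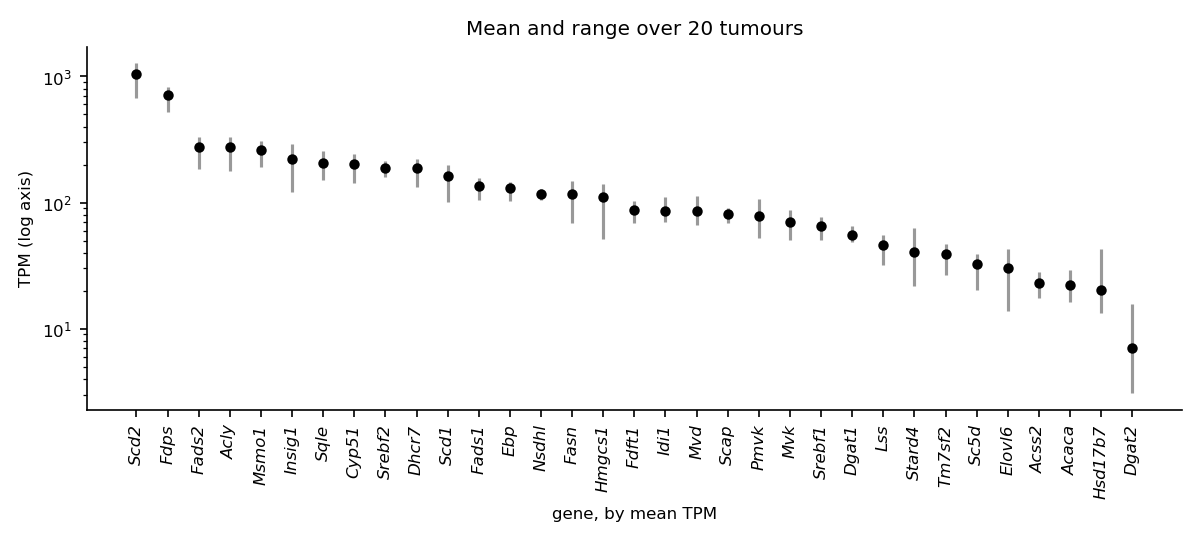
Mean (point) and lowest to highest value (line) of TPM over the 20 tumours for each of the 33 genes, in order of the mean, on a log axis. Scd2 averaged 1044 TPM and Fdps 714 TPM, and Dgat2, at 7.02 TPM, has one of the longest lines.

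The combination was set against IgG to ask which of these genes the joint treatment moved. Of the 33 genes, 1 fell and 0 rose at a Benjamini-Hochberg adjusted p under 0.05 (edgeR quasi-likelihood test over all 15875 genes), beside 4.88% of all genes called, 2.63% lower and 2.24% higher. At an unadjusted p under 0.05 the count was 6 of 33, beside 23.6% of all genes. The gene that fell was Dgat2. The median log2 fold change was -0.13 over the 33 genes, with 24 of 33 below 0, and -0.01 over all genes tested, with 51.8% below 0. These splits depend on the scaling: with plain library totals 20 of 33 genes were below 0 (40.4% of all genes), and on the log2(TPM + 1) scale 16 of 33, where all genes shifted upwards as well (33.5% below 0). The CPM ranges of combination and IgG tumours failed to overlap for 1 of the 33 genes, Dgat2, beside 7.21% of all genes lower and 4.72% higher without overlap.

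Dgat2 catalyses the last step of triglyceride synthesis and lies on chromosome 7 at chr7:99153658-99182719 (GRCm38, minus strand). It had 3.39, 5.48, 4.801, 5.66 and 3.902 CPM in the 5 combination tumours, against 10.3, 10.1, 12.6, 7.55 and 8.66 CPM in the 5 IgG tumours. All 5 combination tumours lay below all 5 IgG tumours. In propafenone tumours it had 6.77, 6.85, 16.7, 5.56 and 14.4 CPM, and in anti-PD-1 tumours 3.28, 5.42, 8.18, 4.902 and 7.54 CPM. Propafenone tumours 3 and 5 were the highest of all 20, and anti-PD-1 tumour 1 was the lowest. The mean was 4.65 ± 0.985 CPM after the combination and 9.83 ± 1.895 CPM after IgG (SD, n = 5 each), a log2 fold change of -1.08 ± 0.29 (SE, edgeR adjusted p = 0.0387). DESeq2 (adjusted p = 0.00806) and limma voom (adjusted p = 0.0383) made the same call.

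Dgat2 is also a gene of fat cells, so adipocyte markers are given beside it. They summed to 27.8 to 90.5 CPM in combination tumours, 19.4 to 29.1 CPM in propafenone tumours, 19.9 to 66.3 CPM in anti-PD-1 tumours and 20.7 to 42.3 CPM in IgG tumours. Of 12 such markers, 10 were tested, 9 had a log2 fold change above 0 in combination against IgG tumours and 2 were called higher, and Cidea was at 0 in 10 or more of the 20 tumours. The median of their summed level was 72.7 CPM in combination tumours and 24.6 CPM in IgG tumours. The part of fat cells in the Dgat2 level was not tested, apart from a fit with the adipocyte score as a covariate. With the adipocyte score of each tumour as a covariate Dgat2 stood at -1.02 (adjusted p = 0.175), and with the muscle score at -0.87 (adjusted p = 0.328), both without a call. Without any 1 of the 5 combination tumours, or without IgG tumour 1, 2, 3 or 5, the edgeR adjusted p of Dgat2 was 0.0522 to 0.101 and the call was lost, while the log2 fold change stayed between -1.16 and -0.98. Over all 35 alternative settings the adjusted p ran from 0.00551 to 0.328.

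**Figure D2:**
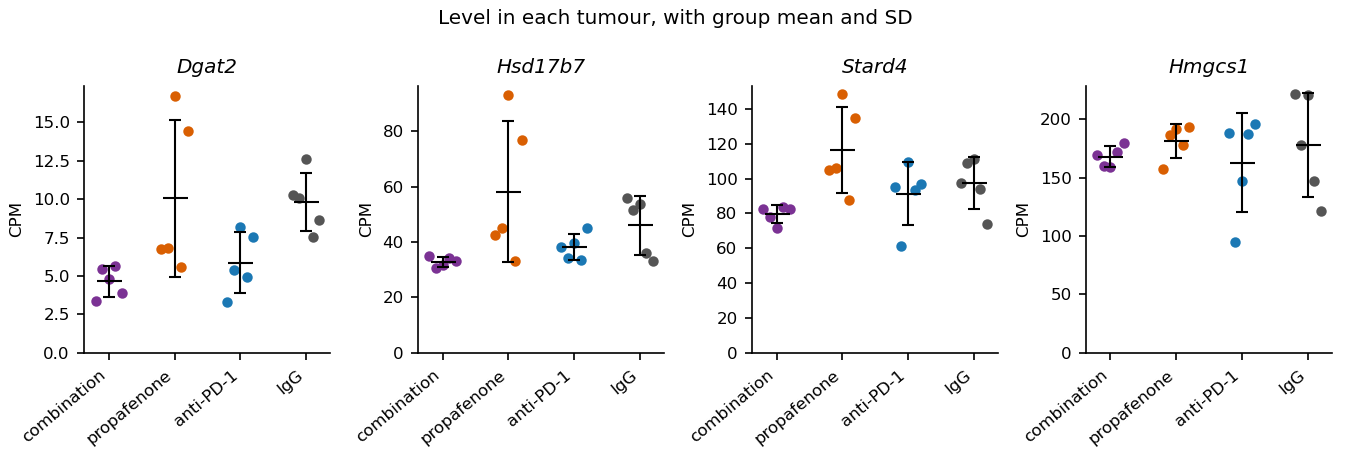
CPM of Dgat2, Hsd17b7, Stard4 and Hmgcs1 in each tumour (points), with the group mean and SD (bars), for combination, propafenone, anti-PD-1 and IgG tumours. All combination tumours lie below all IgG tumours for Dgat2, and 2 propafenone tumours stand high for Dgat2, Hsd17b7 and Stard4.

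Among the 6 genes of the mevalonate steps, 5 had log2 fold changes below 0 in combination against IgG tumours and none was called, with values between -0.22 for Pmvk, phosphomevalonate kinase, and 0.05 for Fdps. Hmgcs1, the synthase that makes HMG-CoA, stood at -0.08, mevalonate kinase Mvk at -0.18, the decarboxylase Mvd at -0.21 and the isomerase Idi1 at -0.13. Of the 11 genes of squalene and sterol steps, 8 were below 0 and none was called. Hsd17b7, a keto-reductase of the sterol demethylation steps, had the lowest value at -0.49 (adjusted p = 0.176), and Tm7sf2, a sterol reductase, and Ebp, a sterol isomerase, stood at 0.02 and 0.02. Of the 5 regulators and transporters 4 were below 0, and Insig1 stood at 0.07. Of the 4 genes of acetyl-CoA supply and fatty acid synthesis, 2 were below 0. Acss2, which makes acetyl-CoA from acetate, stood at -0.29 (adjusted p = 0.0812) and Acaca, which makes malonyl-CoA, at 0.13. Of the 5 elongases and desaturases 3 were below 0, and none was called in either role. Dgat1, the other triglyceride synthase, stood at -0.17.

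Next to Dgat2, the smallest p among the 33 genes belonged to Fdft1, squalene synthase. Fdft1 had 127, 123, 145, 125 and 124 CPM in combination tumours, against 166, 135, 152, 139 and 151 CPM in IgG tumours. Combination tumour 3 reached the IgG range, and the other 4 combination tumours lay below all IgG tumours. The log2 fold change was -0.21 ± 0.07 (SE, edgeR adjusted p = 0.0747). Reads of Fdft1 cannot be separated from those of Ctsb, whose exons overlap it on the other strand, if counting ignored strand. The same limit holds for Hmgcs1, Idi1, Lss, Cyp51, Srebf1, Scap, Acss2 and Elovl6, which exons of other genes overlap on the other strand. Exons of other genes overlap Fdps, Tm7sf2, Srebf1 and Scd2 on the same strand. Sqle, squalene epoxidase, stood at -0.22 (adjusted p = 0.107) and Srebf1 at -0.21 (adjusted p = 0.122); both were called in the fit without IgG tumour 2, where Dgat2 was not. Hsd17b7 and Stard4 were called lower beside Dgat2 in the fit without the 5 tumours above 1000 CPM of the haemoglobin gene Hbb-bs (propafenone 4 and 5, anti-PD-1 2, IgG 4 and 5).

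**Figure D3:**
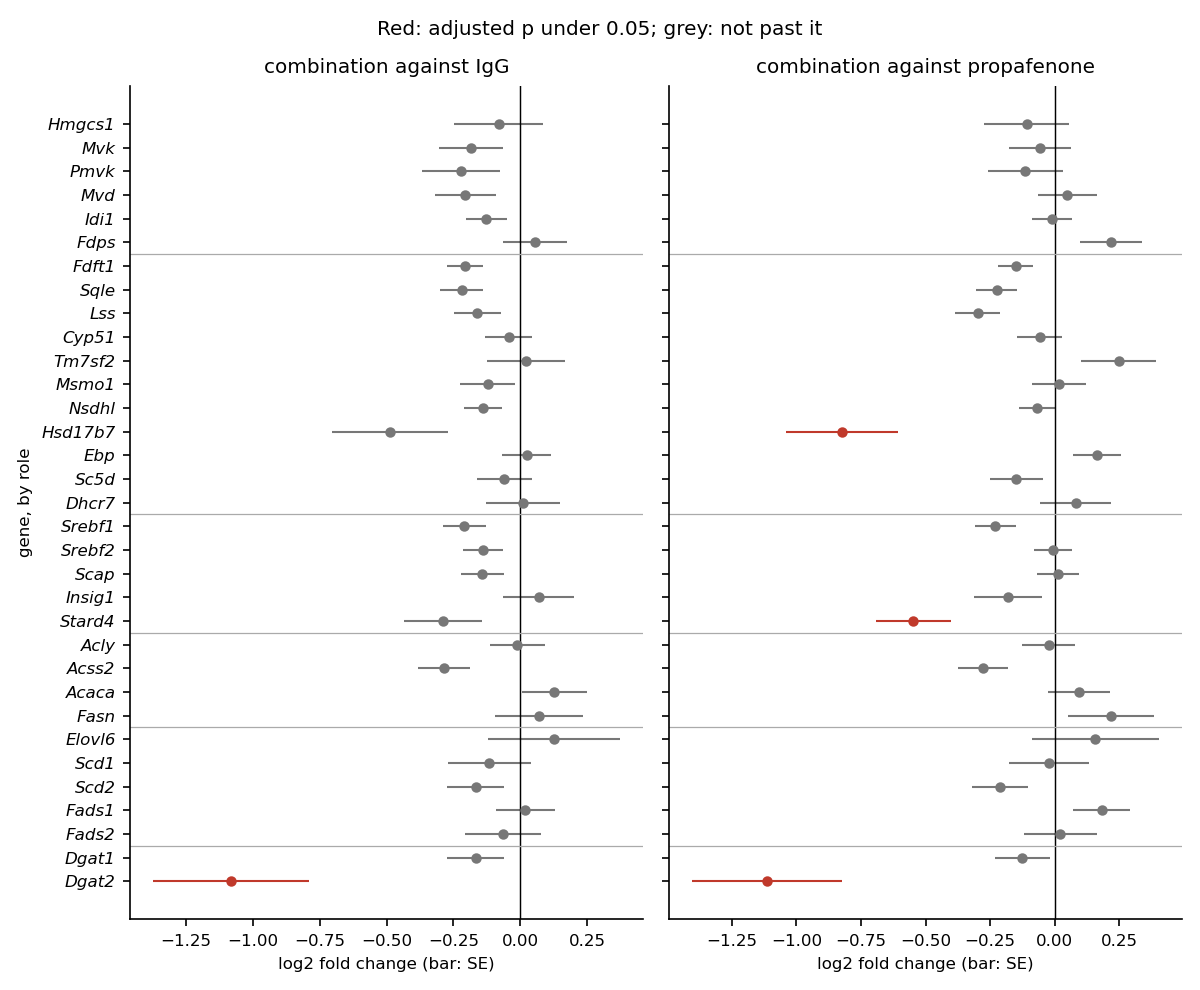
Log2 fold change with its SE for each of the 33 genes, grouped by role, for combination against IgG (left) and combination against propafenone (right). Red points passed an adjusted p of 0.05: Dgat2 on the left, and Hsd17b7, Stard4 and Dgat2 on the right.

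The combination was set against propafenone to ask what anti-PD-1 added. This comparison uses the same 5 combination tumours as the one above. Of the 33 genes 3 fell and 0 rose (edgeR adjusted p under 0.05), beside 3.88% of all genes called, 2.21% lower and 1.67% higher. At an unadjusted p under 0.05 the count was 8 of 33, beside 23.2% of all genes. They were Dgat2, Hsd17b7 and Stard4, and DESeq2 called 4, with Lss added, while limma voom called Stard4 alone. The median over the 33 genes was -0.06, with 21 of 33 below 0, against -0.01 over all genes, with 51.0% below 0. With library totals and on log2(TPM + 1), 17 of 33 were below 0, beside 44.2% and 44.6% of all genes. CPM ranges failed to overlap for 3 of 33 genes, Sqle, Sc5d and Stard4, all lower in combination tumours, beside 4.88% of all genes lower and 3.65% higher. In TPM the Sqle ranges stayed apart, while those of Sc5d and of Stard4 overlapped.

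Hsd17b7 had 34.8, 30.5, 31.6, 34.05 and 33.2 CPM in combination tumours, against 42.5, 45.2, 93.1, 33.1 and 76.8 CPM in propafenone tumours. Combination tumours stayed within a narrow band, while propafenone tumours 3 and 5 stood far above the other 3, and propafenone tumour 4 lay inside the combination range. It had 38.01, 34.3, 39.6, 33.6 and 45.2 CPM in anti-PD-1 tumours, against 55.9, 51.5, 53.7, 35.9 and 33.01 CPM in IgG tumours, and IgG tumours 4 and 5 were lower than the other IgG tumours. The combination mean was 32.8 ± 1.78 CPM and the propafenone mean 58.2 ± 25.5 CPM (SD, n = 5 each). The log2 fold change was -0.82 ± 0.22 (SE, edgeR adjusted p = 0.0415).

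Stard4, a carrier that moves sterol through the cytosol between membranes, had 82.3, 77.8, 71.7, 83.8 and 82.4 CPM in combination tumours, against 105, 106, 149, 87.6 and 135 CPM in propafenone tumours. In CPM all 5 combination tumours lay below all 5 propafenone tumours, while in TPM combination tumour 5 (37.5 TPM) lay above propafenone tumour 4 (36.9 TPM). In anti-PD-1 tumours it had 95.04, 61.1, 109.6, 93.6 and 96.97 CPM, against 97.7, 109, 111, 94.2 and 74.1 CPM in IgG tumours, with anti-PD-1 tumour 2 and IgG tumour 5 the lowest of their groups. Its mean was 79.6 ± 4.97 CPM in combination tumours and 116 ± 24.7 CPM in propafenone tumours (SD, n = 5 each). The log2 fold change was -0.55 ± 0.15 (edgeR adjusted p = 0.0427). For Dgat2 the means were 4.65 ± 0.985 CPM in combination tumours and 10.1 ± 5.11 CPM in propafenone tumours, with a log2 fold change of -1.11 ± 0.29 (edgeR adjusted p = 0.0401). Propafenone tumour 4, at 5.56 CPM, lay inside the combination range.

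All 3 genes lost their calls without propafenone tumours 3 and 5. Without both, a setting chosen after the values were seen, the log2 fold changes were -0.44 for Dgat2, -0.27 for Hsd17b7 and -0.30 for Stard4, with adjusted p of 0.675, 0.677 and 0.634. None of the 33 genes was called without propafenone tumour 3, without propafenone tumour 5, without IgG tumour 4 or without any 1 combination tumour, and 5 were called without propafenone tumour 4, with Lss and Srebf1 added. Across the settings the edgeR, DESeq2 and limma adjusted p ran from 0.00593 to 0.675 for Dgat2, from 0.00692 to 0.677 for Hsd17b7 and from 0.0112 to 0.634 for Stard4.

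Among the other 30 genes of this comparison, Lss, which closes squalene epoxide into lanosterol, had the smallest p. Lss had 111, 119, 124, 106 and 116 CPM in combination tumours, against 139, 146, 155, 116 and 153 CPM in propafenone tumours. Propafenone tumour 4 lay within the combination range and the other 4 above it, for a log2 fold change of -0.30 ± 0.09 (edgeR adjusted p = 0.0563). Sqle had 247, 256, 252, 248 and 251 CPM in combination tumours, against 274, 279, 336, 279 and 299 CPM in propafenone tumours. The Sqle groups did not overlap, with a log2 fold change of -0.23 ± 0.08 (edgeR adjusted p = 0.103). Fatty acid synthase Fasn stood at 0.22, Fdps at 0.22, Tm7sf2 at 0.25 and the elongase Elovl6 at 0.16, none called. By role, 1 of 11 genes of squalene and sterol steps, 1 of 5 regulators and transporters and 1 of 2 triglyceride synthases were called lower, and 0 of 15 in the other 3 roles.

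Propafenone was set against IgG for the effect of the drug alone. No gene of the 33 was called, and no gene of all 15875 was called (0.00%) by edgeR; DESeq2 and limma voom called none of the 33. At an unadjusted p under 0.05 the count was 1 of 33, beside 754 of all genes (4.75%). The log2 fold changes ran from -0.25 for Mvd to 0.34 for Hsd17b7, with 20 of 33 below 0 and a median of -0.05, against 0.00362 over all genes, and on log2(TPM + 1) 16 of 33 were below 0, beside 33.2% of all genes. No member's CPM ranges were apart, beside 0.706% of all genes lower and 0.529% higher.

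The smallest p here belonged to Mvd, Scap and Insig1. Mvd, which decarboxylates mevalonate diphosphate, had 62.4, 73.3, 63.4, 73.7 and 64.7 CPM in propafenone tumours, against 94.7, 57.4, 90.6, 74.4 and 85.5 CPM in IgG tumours. IgG tumours spanned the wider range and held both the lowest and the highest value, and the log2 fold change was -0.25 ± 0.11 (edgeR adjusted p = 0.913). Scap had 174, 146, 146, 178 and 139 CPM in propafenone tumours, against 179.9, 159, 167, 175 and 191 CPM in IgG tumours, a log2 fold change of -0.16 ± 0.08 (edgeR adjusted p = 0.913). Propafenone tumours 1 and 4 lay within the IgG range and the other 3 below it. Insig1 had 289.6, 303, 371, 259 and 352 CPM in propafenone tumours, against 282, 286, 306, 252 and 198 CPM in IgG tumours. Propafenone tumours 3 and 5 were the highest, the other 3 lay within the IgG range, and the log2 fold change was 0.25 ± 0.13 (edgeR adjusted p = 0.913).

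Anti-PD-1 was set against IgG for the effect of the antibody alone; these IgG tumours are those of the comparisons above. No gene of the 33 and no gene of all 15875 (0.00%) was called by edgeR, and DESeq2 and limma voom called none of the 33. At an unadjusted p under 0.05 the count was 6 of 33, beside 1203 of all genes (7.58%). Of the 33 genes 25 were below 0, with a median of -0.11 against -0.00117 over all genes, and 22 to 24 were below 0 with the other scalings. No CPM ranges were apart, beside 0.498% of all genes lower and 0.454% higher. The smallest p belonged to Dgat2, with 5.86 ± 2.001 CPM in anti-PD-1 tumours and 9.83 ± 1.895 CPM in IgG tumours (SD, n = 5 each). Its log2 fold change was -0.74 ± 0.29 (edgeR adjusted p = 0.564), and anti-PD-1 tumour 3, at 8.18 CPM, and IgG tumour 4, at 7.55 CPM, made the ranges overlap.

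Fdft1 had 132, 125, 123, 134 and 147 CPM in anti-PD-1 tumours, against the IgG values given above, a log2 fold change of -0.17 ± 0.07 (edgeR adjusted p = 0.585). Srebf1, the SREBP that favours fatty acid genes, had 99.6, 119, 121, 124 and 128 CPM in anti-PD-1 tumours, against 146, 113, 148, 135 and 139 CPM in IgG tumours. IgG tumour 2 lay among the anti-PD-1 tumours and the other 4 IgG tumours lay above all of them. Its log2 fold change was -0.20 ± 0.08 (edgeR adjusted p = 0.585). Srebf1 had 114, 119, 130.4, 114 and 111 CPM in combination tumours and 144, 144, 139.6, 119.8 and 143 CPM in propafenone tumours, and its exons overlap those of Rai1 on the other strand.

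The combination was set against anti-PD-1 to ask what propafenone added. No gene of the 33 and none of all 15875 (0.00%) was called by edgeR, DESeq2 and limma voom called none of the 33, and the count at an unadjusted p under 0.05 was 0 of 33, beside 1552 of all genes (9.78%). With TMM scaling 21 of 33 were below 0 and the median was -0.01, as it was over all genes. This split turned with the scaling, to 15 of 33 below 0 with DESeq2 size factors, 9 with library totals and 6 on log2(TPM + 1). The share of all genes below 0 turned with it, at 52.1% with TMM, 48.9% with DESeq2 size factors, 39.6% with library totals and 30.3% on log2(TPM + 1). Msmo1, the methylsterol oxidase that acts after lanosterol, had 232, 247, 253, 236 and 246 CPM in combination tumours, against 274, 278, 273, 258 and 285 CPM in anti-PD-1 tumours. It was the 1 gene of 33 whose CPM ranges did not overlap here, beside 1.23% of all genes lower and 1.15% higher, with a log2 fold change of -0.17 ± 0.10 (edgeR adjusted p = 0.590). In TPM its ranges overlapped, as anti-PD-1 tumour 2 (244.75 TPM) lay below combination tumour 1 (244.83 TPM). Msmo1 ran wider in the other groups, at 234, 249.6, 222, 297 and 199 CPM in propafenone tumours and 277, 188, 264, 293 and 301 CPM in IgG tumours.

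Dgat1 had 41.3, 38.99, 50.99, 44.9 and 36.97 CPM in combination tumours, against 41.7, 60.5, 50.1, 41.7 and 45.8 CPM in anti-PD-1 tumours. Anti-PD-1 tumour 2 was the highest of all 20 in CPM, while in TPM (59.5) it lay below IgG tumour 1 (65.6). The log2 fold change was -0.17 ± 0.11 (edgeR adjusted p = 0.603). Dgat1 had 43.4, 43.1, 51.8, 44.8 and 49.5 CPM in propafenone tumours, against 54.3, 45.7, 42.2, 47.6 and 49.4 CPM in IgG tumours. Nsdhl, a dehydrogenase that removes a carboxyl group from the sterol ring, had 118, 111, 125, 113 and 111 CPM in combination tumours, against 127, 132, 118, 119.9 and 126 CPM in anti-PD-1 tumours, a log2 fold change of -0.11 ± 0.07 (edgeR adjusted p = 0.613). The Nsdhl ranges overlapped.

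The interaction, the combination effect minus the sum of both single effects on the log2 scale, was called for 0 of 33 genes and 0 of all genes (0.00%) by edgeR, and DESeq2 and limma voom called none of the 33. At an unadjusted p under 0.05 the count was 1 of 33, beside 482 of all genes (3.04%). Stard4 stood at -0.46 ± 0.21, Hsd17b7 at -0.55 ± 0.30 and Fasn at 0.34 ± 0.23 (edgeR adjusted p = 0.990 for each). Fasn, which makes palmitate, had 550.2, 629.7, 636, 582 and 573 CPM in combination tumours and 523, 597, 360.4, 670.1 and 404 CPM in propafenone tumours. It had 613, 545, 339.7, 585 and 511 CPM in anti-PD-1 tumours, against 679, 414, 626, 534 and 578 CPM in IgG tumours. The lowest combination tumour stood at 550.2 CPM, while the lowest value was 360.4 CPM in propafenone tumours, 339.7 CPM in anti-PD-1 tumours and 413.5 CPM in IgG tumours. All 6 mevalonate genes had interaction values above 0 (0.02 to 0.23), and 7 of 11 squalene and sterol genes were below 0.

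**Figure D4:**
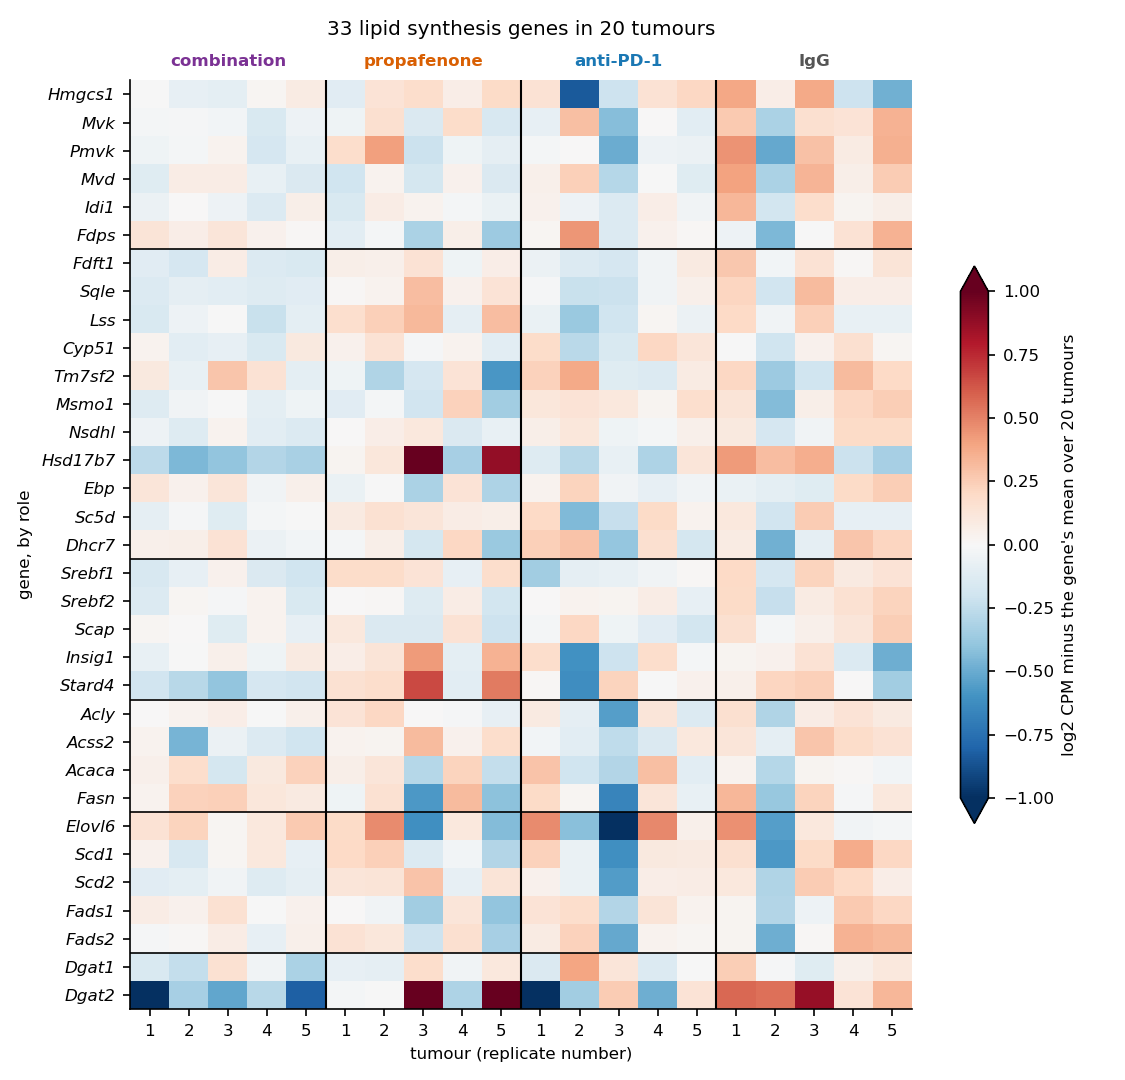
Log2 CPM of each gene minus its mean over the 20 tumours, for the 33 genes by role (down) and combination, propafenone, anti-PD-1 and IgG tumours (across); the colour scale ends at 1 in both directions. Columns of anti-PD-1 tumour 3 and IgG tumour 2 are blue over many genes, and propafenone tumours 3 and 5 are red for Hsd17b7, Stard4 and Dgat2 and blue for Fasn and Elovl6.

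Single tumours stood at the ends of the CPM range for sets of these genes. Anti-PD-1 tumour 3 was the lowest of all 20 tumours for 8 of the 33 genes: Mvk, Acly, which makes acetyl-CoA from citrate, Acaca, Fasn, Elovl6, both Scd genes and Fads2, a desaturase of polyunsaturated fatty acids. IgG tumour 2 was the lowest for another 8, the mevalonate genes Pmvk, Mvd, Idi1 and Fdps, the sterol genes Msmo1, Nsdhl and Dhcr7, and Srebf2. Anti-PD-1 tumour 2 was the lowest for 7 genes, Hmgcs1, Sqle, Lss, Cyp51, Sc5d, Insig1 and Stard4, and the highest for 4, Fdps, Tm7sf2, Dhcr7 and Dgat1. In TPM it was not the highest for Tm7sf2, Dhcr7 or Dgat1. IgG tumour 1 was the highest for 6 genes, Hmgcs1, Pmvk, Mvd, Idi1, Fdft1 and Fasn. IgG tumour 5 was the highest for another 6, Mvk, Msmo1, Nsdhl, Ebp, Srebf2 and Scap. Propafenone tumour 3 was the highest for 7 genes, Lss, Hsd17b7, Insig1, Stard4, Acss2, Scd2 and Dgat2. Over all 15875 genes, anti-PD-1 tumour 3 was the lowest for 13.8%, IgG tumour 2 for 4.26% and anti-PD-1 tumour 2 for 13.1%, and the highest was anti-PD-1 tumour 2 for 13.4% and propafenone tumour 3 for 9.22%. IgG tumours 1 and 5 were the highest for 4.89% and 5.49% of all genes.

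Elovl6, which lengthens palmitate to stearate, had 89.96, 94.6, 82.4, 87.3 and 97.6 CPM in combination tumours and 92.7, 112, 52.98, 87.3 and 60.1 CPM in propafenone tumours. It had 113, 60.9, 39.9, 114 and 84.1 CPM in anti-PD-1 tumours, against 112, 55.6, 87.4, 79.1 and 80.2 CPM in IgG tumours. Propafenone tumours 3 and 5, anti-PD-1 tumour 3 and IgG tumour 2 were low for Elovl6 as for Fasn, and anti-PD-1 tumour 2 was low for Elovl6 while its Fasn level was 544.5 CPM. Hmgcs1 had 169.6, 160.4, 159, 172 and 180.1 CPM in combination tumours and 157, 187, 192, 178 and 193 CPM in propafenone tumours. It had 188, 95.03, 147, 188 and 196 CPM in anti-PD-1 tumours, against 222, 178, 221, 147 and 122 CPM in IgG tumours. Anti-PD-1 tumour 2 and IgG tumour 5 were the lowest for Hmgcs1 and also for Insig1, at 182 and 198 CPM.

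Libraries also differed in GC tilt, the correlation across genes of a library's deviation from the mean log2 CPM with the GC content of the longest transcript. The tilt ran from -0.129 to 0.206 over the 20 tumours, with the highest values in anti-PD-1 tumour 2 (0.206), anti-PD-1 tumour 3 (0.127) and IgG tumour 5 (0.113). Hbb-bs was highest in IgG tumour 5 (3181 CPM), followed by propafenone tumour 5 (1855 CPM), IgG tumour 4 (1618 CPM) and anti-PD-1 tumour 2 (1526 CPM), where the median over all tumours was 201 CPM. The longest transcript has 43.1% GC for Hmgcs1, 48.2% for Insig1 and 56.5% for Dgat1, and Dgat1 was high where Hmgcs1 and Insig1 were low in anti-PD-1 tumour 2. These 3 genes were picked after their values were seen. Msmo1 and Idi1, also of low GC, are given beside them. In the same tumour Msmo1 (44.7% GC) had 278 CPM, where the other 4 anti-PD-1 tumours had 258 to 285 CPM. Idi1 (41.9% GC) had 112 CPM, where the others had 106 to 122 CPM. In TPM both were low there. Msmo1 had 244.75 TPM, where the other 4 anti-PD-1 tumours had 267.7 to 292.4 TPM, and Idi1 had 69.7 TPM, the lowest of the 20 tumours. Dgat1 had 59.5 TPM in anti-PD-1 tumour 2, below IgG tumour 1 at 65.6 TPM. Hmgcs1 (51.3 TPM) and Insig1 (121.6 TPM) had their lowest TPM of the 20 tumours in anti-PD-1 tumour 2. Across tumours, log2 CPM correlated with the tilt at -0.70 for Insig1, -0.60 for Hmgcs1, -0.02 for Idi1, 0.29 for Msmo1 and 0.79 for Dgat1. Insig1 and Dgat1 had the lowest and highest correlation among the genes of cholesterol and fatty acid synthesis. The part of GC tilt and of blood in these levels was not tested. GC tilt ran from -0.127 to 0.0473 in combination tumours and from -0.00653 to 0.113 in IgG tumours. With the tilt as a covariate, a setting chosen after the values were seen, Dgat2 in combination against IgG stood at -0.95 (edgeR adjusted p = 0.0864) and was not called, while Hsd17b7, Stard4 and Dgat2 were called against propafenone, with Lss added.

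**Figure D5:**
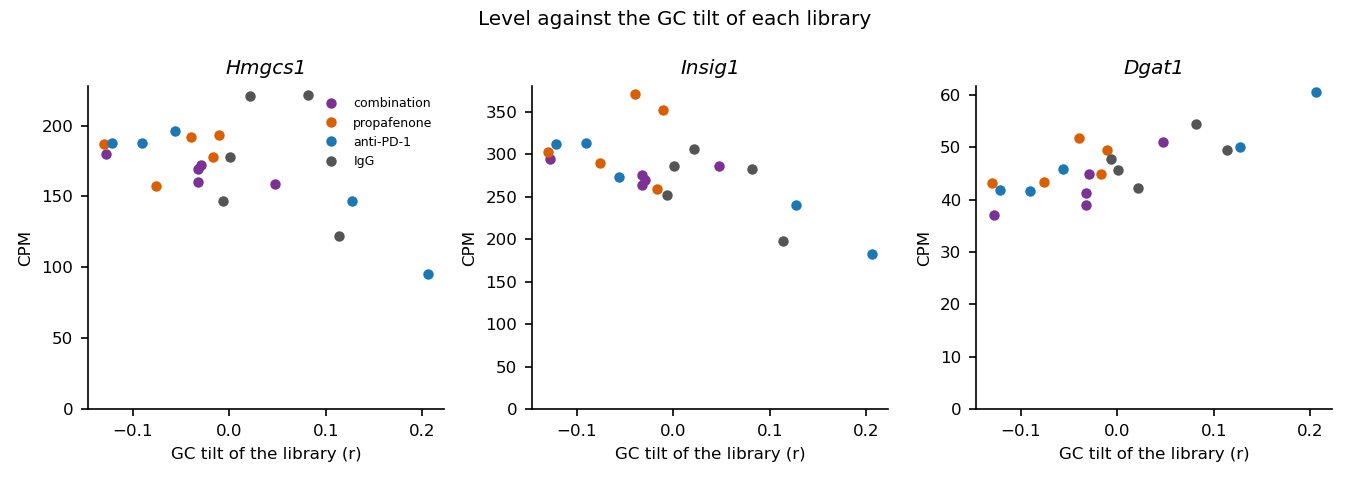
CPM of Hmgcs1, Insig1 and Dgat1 against the GC tilt of each library (correlation r, no unit), with points coloured by group. At the highest tilt, 0.206 in anti-PD-1 tumour 2, Hmgcs1 (95.03 CPM) and Insig1 (182 CPM) have their lowest values and Dgat1 (60.5 CPM) its highest.

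Promoters are shown for the 3 genes that stood out in this variation, Hsd17b7 for its high propafenone tumours and Hmgcs1 and Insig1 for their shared low tumours. Sequences are those of RefSeq on GRCm38.p6, read 5′ to 3′ on the gene's strand and ending at the RefSeq start, less bases that GENCODE release 21 places inside the gene. Capitals mark matches, on either strand, to TCACNCCAC, a form of the sterol response element that SREBP binds, to CCAAT, the site of NF-Y, which reads ATTGG on the other strand, and to CACGTG, the E-box; no matches overlap in them.
Hsd17b7: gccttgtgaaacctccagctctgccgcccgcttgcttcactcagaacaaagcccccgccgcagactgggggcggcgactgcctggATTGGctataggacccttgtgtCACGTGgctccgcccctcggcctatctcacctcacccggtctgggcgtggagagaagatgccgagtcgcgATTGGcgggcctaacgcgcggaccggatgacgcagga
Hmgcs1: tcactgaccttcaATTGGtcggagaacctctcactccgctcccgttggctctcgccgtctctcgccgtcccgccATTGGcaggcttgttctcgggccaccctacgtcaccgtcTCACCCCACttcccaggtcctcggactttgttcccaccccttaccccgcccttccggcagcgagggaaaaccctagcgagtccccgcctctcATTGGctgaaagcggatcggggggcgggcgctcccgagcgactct
Insig1: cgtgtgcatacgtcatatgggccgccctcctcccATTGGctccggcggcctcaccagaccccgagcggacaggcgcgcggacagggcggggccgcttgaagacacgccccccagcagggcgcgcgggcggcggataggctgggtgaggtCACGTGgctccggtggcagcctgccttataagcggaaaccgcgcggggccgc
The stretches are chr1:169969242-169969455 (minus strand, 214 bases), chr13:119690101-119690350 (plus strand, 250 bases) and chr5:28071162-28071362 (plus strand, 201 bases). The Hmgcs1 stretch holds 1 match to TCACNCCAC and 3 to CCAAT, that of Hsd17b7 holds 2 matches to CCAAT and 1 to CACGTG, and that of Insig1 holds 1 match to each of CCAAT and CACGTG.

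RefSeq windows of 250 bases before the start were found for 24 of the 33 genes, with 30 windows in all, and those of Fdps, Fdft1, Sqle, Stard4, Scd1, Scd2, Fads1, Dgat1 and Dgat2 were not used here. CCAAT was found in 20 of the 30 windows (66.7%), beside 33.8% of 32851 windows of all genes. CACGTG was found in 5 (16.7%), beside 6.02%, in Hsd17b7, Sc5d, Dhcr7, Scap and Insig1. TCACNCCAC was found in 1 (3.33%), that of Hmgcs1, beside 1.05%. A match describes letters in a window and is not a measured binding site.

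In these genes the combination tumours differed least among themselves. The SD of log2 CPM within a group had a median over the 33 genes of 0.0788 in combination tumours, 0.168 in propafenone tumours, 0.216 in anti-PD-1 tumours and 0.222 in IgG tumours. Over all genes tested the medians were 0.141, 0.224, 0.295 and 0.222 in the same order, so the combination was lowest there too. For 24 of the 33 genes (72.7%) the smallest SD of the 4 groups was that of the combination, beside 53.3% of all 15875 genes. Sqle showed it most plainly, at 251 ± 3.47 CPM in combination tumours, 293 ± 25.8 CPM in propafenone tumours, 257 ± 21.6 CPM in anti-PD-1 tumours and 292 ± 37.8 CPM in IgG tumours (SD, n = 5 each). The other 9 genes were Fdft1, Cyp51, Sc5d and Dgat1, with the smallest SD in propafenone tumours, Nsdhl and Srebf2, with the smallest in anti-PD-1 tumours, Acaca and Dgat2, with the smallest in IgG tumours, and Acss2. For Acss2 the combination had the largest SD of log2 CPM, 0.188, against 0.125 in propafenone tumours, 0.134 in anti-PD-1 tumours and 0.137 in IgG tumours.

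Genes of the same pathways outside the 33 were counted from 4 lists. In the list of SREBP control and sterol sensing, 8 of 10 genes were above 0 in combination against IgG tumours and 3 rose, beside 2.24% of all genes called higher. These were Nr1h3, the sterol-sensing nuclear receptor LXR alpha, and its targets Abca1 and Abcg1, which export cholesterol from cells. The 2 genes of the list below 0 were Lpcat3, at -0.20 (edgeR adjusted p = 0.194), and Nr1h2, at -0.12 (edgeR adjusted p = 0.558). Of the 33 genes, Srebf1 stood at -0.21 and Scd1 at -0.12, not called. Abca1 had 18.1, 14.2, 19.2, 15.4 and 20.3 CPM in combination tumours, against 7.39, 13.97, 9.39, 12.8 and 8.44 CPM in IgG tumours, and the groups did not overlap. Its log2 fold change was 0.75 ± 0.16 (edgeR adjusted p = 0.0206). In anti-PD-1 tumours Abca1 had 14.9, 15.8, 16.8, 14.5 and 19.4 CPM, all above the IgG tumours. Anti-PD-1 alone stood at 0.65 against IgG for Abca1, 0.25 for Abcg1 and 0.26 for Nr1h3 (edgeR adjusted p = 0.382, 0.908 and 0.945). The combination stood at 0.10 against anti-PD-1 for Abca1, 0.77 for Abcg1 and 1.33 for Nr1h3 (edgeR adjusted p = 0.844, 0.445 and 0.445). Abcg1 had 7.44, 4.53, 5.63, 4.88 and 6.39 CPM in combination tumours, against 2.91, 2.79, 2.79, 3.21 and 2.58 CPM in IgG tumours, without overlap and with a log2 fold change of 1.02 ± 0.27 (edgeR adjusted p = 0.0377). Nr1h3 had 3.17, 1.58, 1.58, 1.13 and 2.57 CPM in combination tumours, against 0.703, 0.742, 0.299, 1.23 and 0.350 CPM in IgG tumours, and IgG tumour 4 lay above combination tumour 4. Its log2 fold change was 1.59 ± 0.41 (edgeR adjusted p = 0.0321), and 0.95 on log2(TPM + 1), where Abcg1 stood at 0.65. All 3 are known to be expressed in macrophages, whose 10 markers were all above 0 in this comparison with 6 called higher and summed to 203 to 454 CPM in combination tumours and 38.3 to 184 CPM in IgG tumours. All 8 fibroblast markers were above 0 as well with 5 called higher, and all 7 red blood cell markers were below 0 with 2 called lower. The part of macrophages and fibroblasts in the result was not tested. Without the 5 tumours above 1000 CPM of Hbb-bs the adjusted p was 0.0289 for Abca1, 0.0395 for Abcg1 and 0.0221 for Nr1h3.

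Abca1 lost its call without combination tumour 5, IgG tumour 3 or IgG tumour 5 (adjusted p 0.0611 to 0.0640), Nr1h3 without combination tumour 1, 4 or 5 or IgG tumour 1, 3 or 5 (0.0502 to 0.0894), and Abcg1 without combination tumour 1, 3, 4 or 5 or IgG tumour 1, 2, 3 or 5 (0.0542 to 0.0925). With the muscle score as covariate the adjusted p was 0.180 for Abca1, 0.248 for Nr1h3 and 0.430 for Abcg1, whose log2 fold change was then 0.61. With the adipocyte score it was 0.0694 for Abca1, 0.125 for Nr1h3 and 0.194 for Abcg1, and with GC tilt Nr1h3 (0.0543) and Abcg1 (0.0816) also lost their calls. Over all settings it ran from 0.000476 to 0.180 for Abca1, from 0.00473 to 0.248 for Nr1h3 and from 0.00430 to 0.430 for Abcg1.

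Against propafenone tumours 2 of these 10 genes rose, beside 1.67% of all genes called higher. They were Abcg1, at 1.26 ± 0.27 (edgeR adjusted p = 0.0261), and Ch25h, which makes 25-hydroxycholesterol, at 1.78 ± 0.42 (edgeR adjusted p = 0.0304). Abcg1 had 2.56, 3.02, 1.105, 3.97 and 1.37 CPM in propafenone tumours, all below the combination tumours. Ch25h was low throughout, with 1.81, 1.51, 1.74, 1.81 and 1.82 CPM in combination tumours, against 0.382, 0.834, 0.309, 0.781 and 0.212 CPM in propafenone tumours, and the groups did not overlap. On log2(TPM + 1) the log2 fold change was 0.76 for Abcg1 and 1.12 for Ch25h. Abcg1 lost its call without combination tumour 1 or 5 or propafenone tumour 3 or 5 (0.0542 to 0.0854). Ch25h lost its call without any 1 of the 5 combination tumours and without propafenone tumour 1, 3 or 5 (0.0516 to 0.111). Without propafenone tumours 3 and 5 together the adjusted p was 0.276 for Abcg1 and 0.386 for Ch25h.

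In the list of fatty acid supply, activation and esterification, 9 of 15 genes were below 0 in combination against IgG tumours and 1 fell, beside 2.63% of all genes called lower. It was Me1, the malic enzyme that supplies NADPH for fatty acid synthesis. Me1 had 118, 120.0, 133, 104 and 111 CPM in combination tumours, against 152, 146, 189, 149 and 154 CPM in IgG tumours. The groups did not overlap, and the log2 fold change was -0.43 ± 0.10 (edgeR adjusted p = 0.0276). Against propafenone tumours, with 151, 167, 193, 126 and 186 CPM, it was -0.49 ± 0.10 (edgeR adjusted p = 0.0261). Both calls were lost in fits without some single tumours: against IgG it was lost without combination tumour 1, 4 or 5 or IgG tumour 3 or 5 (0.0522 to 0.0820), and against propafenone without combination tumour 4 or 5 or propafenone tumour 3 or 5 (0.0598 to 0.0994), and without both those propafenone tumours its log2 fold change was -0.31 (adjusted p = 0.401). Against IgG the call was also lost with library totals (adjusted p = 0.0601), on the 3 TPM fits (0.0932 to 0.129), with the adipocyte score (0.188) and with the muscle score, where the log2 fold change was -0.23 (adjusted p = 0.415). Against propafenone it was also lost with the adipocyte score (0.0505) and the muscle score (0.0572). In anti-PD-1 tumours Me1 stood at -0.28 against IgG (edgeR adjusted p = 0.515), and the combination stood at -0.15 against anti-PD-1 (edgeR adjusted p = 0.643).

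Of 10 genes of fatty acid oxidation, 8 were below 0 in combination against IgG tumours, beside 51.8% of all genes, and 1 fell, beside 2.63% of all genes called lower. This was Cpt2, which reforms acyl-CoA inside mitochondria, with 35.5, 29.4, 33.8, 32.2 and 32.7 CPM in combination tumours, against 44.04, 37.8, 42.5, 40.3 and 37.01 CPM in IgG tumours. The groups did not overlap, and the log2 fold change was -0.30 ± 0.08 (edgeR adjusted p = 0.0304). Against propafenone tumours 2 fell, beside 2.21% of all genes called lower. They were Cpt2, with 41.7, 41.1, 40.3, 37.5 and 41.9 CPM in propafenone tumours, all above the combination tumours (-0.31 ± 0.08, edgeR adjusted p = 0.0341), and Etfdh, which passes electrons from acyl-CoA dehydrogenases to ubiquinone. Etfdh had 80.3, 76.2, 84.9, 77.8 and 77.7 CPM in combination tumours, against 92.3, 92.5, 103, 82.6 and 103 CPM in propafenone tumours, and propafenone tumour 4 lay inside the combination range. Its log2 fold change was -0.26 ± 0.07 (edgeR adjusted p = 0.0417).

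Cpt2 lost its call against IgG with library totals (adjusted p = 0.117), on the 3 TPM fits (0.216 to 0.256), with the adipocyte score (0.136), with the muscle score (0.212) and without any 1 of 7 tumours (combination 2, 4 and 5, IgG 1, 3, 4 and 5; 0.0580 to 0.0827). On log2(TPM + 1) its log2 fold change against IgG was -0.20. Against propafenone Cpt2 lost its call in 16 of 35 alternatives, 8 of them without 1 tumour (combination 2 to 5, propafenone 1, 2, 3 and 5; 0.0510 to 0.110). Etfdh lost its call in 20 of 35, of which 11 left out 1 tumour (combination 1 to 5, propafenone 1, 2, 3 and 5, IgG 4 and 5; 0.0551 to 0.150). Without propafenone tumours 3 and 5 together the log2 fold change was -0.27 for Cpt2 (adjusted p = 0.390) and -0.15 for Etfdh (adjusted p = 0.629). In anti-PD-1 tumours Cpt2 averaged 34.2 ± 3.32 CPM (SD) and stood at -0.24 against IgG (edgeR adjusted p = 0.490).

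Of 8 genes of the isoprenoid and sterol branch none was called in any comparison, and none of the genes in the 4 lists was called in propafenone against IgG, anti-PD-1 against IgG, combination against anti-PD-1 or the interaction, where no gene at all was called.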

How the data were processed

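RNA from 20 tumours, 5 in each of 4 groups, was made into libraries with a SMARTER kit for mRNA, per the labels. The submitters' processing notes list HISAT2 2.2.1 and SAMtools 1.9 beside FastQC, and the mouse build GRCm38 (mm10). How reads were counted per gene, on which annotation and with which strand setting is not given in the sources used here. The deposited gene table holds expected counts, that is, estimated counts per gene stored as whole numbers. Among its low values 4 occurs more often (11581 times) than 3 (5505) or 5 (5409), so counts do not map to sequenced fragments in a known way and no counting intervals are given. The second deposited table holds TPM made by the authors, used for levels between genes and as an alternative test on log2(TPM + 1) and log2(TPM + 0.1).

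The test of the counts was that of edgeR 4.0.16, run in R 4.3.3 (filterByExpr, TMM scaling, a robust quasi-likelihood fit of all 20 libraries with 1 mean for each group and 16 residual degrees of freedom), with p-values Benjamini-Hochberg adjusted over 15875 genes, which hold 99.98% of counts; a gene was called at an adjusted p under 0.05. The common biological coefficient of variation was 0.252. Alternatives used DESeq2 1.42.0 and limma 3.58.1. Replicate libraries were not copies of each other: over 40 within-group pairs, chi-square per degree of freedom was at least 4.20 on counts divided by 4. Values in every tumour are given for genes of the 33 called in any comparison and for the 3 smallest p where none was called; Lss, Sqle, Elovl6 and Hmgcs1 and the genes with promoters were added after their values were seen. The 33 genes, the other gene lists, the tests and the alternatives were chosen with earlier results of these data known. Coordinates and transcript GC come from GENCODE mouse release 21 (32158 of 32285 identifiers found).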

Additional observations from a re-analysis of the deposited data

Results flagged for a closer look

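The 12 genes named by rule were screened in each of the 4 groups for a tumour standing apart by Dixon's test, which gave 2 such tumours in 48 groups, where chance gives about 2.4. Fdft1 was 145 CPM in combination tumour 3, against 123 to 127 CPM in the other 4 combination tumours. Srebf1 was 119.8 CPM in propafenone tumour 4, against 139.6 to 143.8 CPM in the other 4 propafenone tumours.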

How the results depend on the processing

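Combination against IgG gave 1 called gene of 33. The count was 0 with library totals, without the low count filter, on log2(TPM + 1), on log2(TPM + 0.1), on log2(TPM + 1) without a filter, and with the adipocyte score, the skeletal muscle score or GC tilt as covariate. It was 2 with the groups compared alone (Hsd17b7 and Dgat2), 3 without the 5 tumours of Hbb-bs over 1000 CPM, and 0 to 2 without 1 replicate each. Over all genes, 418 were called lower and 356 higher with TMM, against 112 and 368 with library totals. On log2(TPM + 1) these counts were 133 and 897, and on log2(TPM + 0.1) 131 and 773. Combination against propafenone gave 3. The count was 0 with library totals, without the low count filter, on the 3 TPM fits and without both propafenone tumours 3 and 5, 1 (Stard4) with limma voom, the adipocyte score or the muscle score, and 0 to 5 without 1 replicate each. Over all genes, 351 were called lower and 265 higher here with TMM, against 89 and 258 with library totals. On log2(TPM + 1) these counts were 135 and 638, and on log2(TPM + 0.1) 107 and 465. The share of all genes called in the other settings is not given here. The other 4 comparisons gave 0 in each of their alternatives. The median over the 33 genes in combination against IgG moved to 0.00701, 0.00709 and 0.00701 on log2(TPM + 1), log2(TPM + 0.1) and unfiltered log2(TPM + 1), against -0.13 with TMM, and in combination against anti-PD-1 to 0.0996, 0.101 and 0.0996, against -0.01; over all genes the median in combination against IgG was 0.102 on log2(TPM + 0.1), against -0.01 with TMM. No named gene changed direction under the 35 alternatives, of which GC tilt and the loss of both propafenone tumours were added after the values were seen. The labels do not say whether replicate numbers pair the tumours, and these values do not settle it. The 30 pairs of equal number correlated at -0.00694 on average (-0.410 to 0.369), and 7 of 20 libraries were closest to one of their own number. With a replicate block the counts were 1 against IgG and 2 against propafenone (Stard4 at an adjusted p of 0.0507), and 0 in the other comparisons. Total counts were alike in all tumours. Counts do not map to sequenced fragments in a known way, so the share of counting noise in the spread at low levels is not known.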
